A study of Homo sapiens with 24 samples.

Results

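The 200 most abundant antisense-annotated genes of Huh7 hepatoma cells are described here, each paired with the protein-coding gene whose exons it overlaps on the opposite strand. They were chosen by level: among the rows that GENCODE release 29 types as antisense, the 200 with the highest mean FPKM (mapped fragments scaled to transcript length and library size) over all 24 libraries were taken. Before ranking, AC006064.4, AC092115.2 and VIM-AS1 were left out. The members are 200 of 5429 antisense-annotated rows and of 58024 rows in all. Their levels are therefore a description. The ranking did not use differences between groups of libraries, but the members were chosen with earlier results of these data known.

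An antisense gene is transcribed from the strand opposite another gene and often shares exonic sequence with it. Such RNAs can act on the neighbouring gene by pairing with its transcript, by recruiting chromatin factors or through transcription itself, and many have no known function. Where a read lies wholly within exonic bases that both genes cover, its strand is needed to assign it to one of them. The libraries were made with a directional mRNA kit, but the sources used here do not give the strand setting of the counting step. If counting ignored or inverted the strand, fragments of the coding partner would be listed under the antisense name, and the 2 cannot be told apart from these values. Each member is accordingly called a row, and its value is a level listed under the antisense name.

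Huh7 is a human hepatocellular carcinoma line. Cells were wild type (WT) or carried a knockout (KO) of ABHD6, a serine hydrolase that cleaves monoacylglycerols, and were taken at 0 h, from basal medium, or once palmitic acid at 800 µM had been present for 24 h or 48 h. Palmitic acid is a saturated fatty acid that hepatocytes store, oxidise and, in excess, respond to with stress of the endoplasmic reticulum (ER). Each of the 6 groups had 4 libraries. There was no untreated culture at 24 h or 48 h, so palmitic acid and time in culture cannot be told apart. Neither the number of KO clones nor whether each library is its own culture is stated in the labels, so the spread tested here is that between these libraries, which may be technical. In bulk RNA, fewer cells with a transcript and less transcript per cell cannot be told apart either.

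Library facts were as follows. Between 12894 and 15334 rows per library were above 0. Taking the most frequent low value per length as 1 fragment placed the fragments behind a library at roughly 399149 to 771105, lower at 0 h (399149 to 508740) than later (584389 to 771105), so that 1 fragment on a row of 705 bases was worth 1.84 to 3.55 FPKM. All 200 members were above 0 in all 24 libraries, and the lowest member mean, 287 FPKM, lay far above that step. Of 16 hepatocyte and hepatoma markers 14 were above 0 in every library, ALB and AFP among them. Among markers of other cells, 1 of 4 biliary (KRT7), 3 of 4 endothelial (VWF, CDH5 and KDR), 1 of 6 stellate and fibroblast (DCN) and 0 of 5 immune markers were at 0 in every library. The biliary SOX9 (10.2 to 33.0 FPKM), the endothelial PECAM1 (0.462 to 18.04 FPKM) and the immune LYZ (78.0 to 329 FPKM) were above 0 in all 24, and EPCAM and CD68 in 21 each. ABHD6 was above 0 in 7 libraries with a mean of 0.239 FPKM, too low to check the genotype labels.

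Most members are short and lie largely within exons of their partners. Their exonic length had a median of 705 bases (156 to 10225), close to the 686 of the other antisense rows. The median share of a member's exonic bases covered by its partner was 99.0%, against 23.4% in the other antisense rows that have a partner. A partner existed for 197 of 200 members (98.5%) and for 52.2% of the other antisense rows. In 126 pairs the antisense gene lay inside the partner, in 54 the 2 genes overlapped tail to tail, in 11 head to head, and in 6 the partner lay inside the antisense gene. The overlap reached coding exons of the partner in 113 pairs. The 197 pairs hold 193 different partners, since CEBPA, MAZ, CCDC86 and USP22 each face 2 members.

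In every one of the 197 pairs the antisense row had the higher mean FPKM. The median log2 ratio of the 2 means was 6.21 and ranged from 1.13 to 11.18, as the scatter of pair levels shows. Among the 1407 other antisense pairs with both means at 0.5 FPKM or more, the antisense row was the higher in 800 (56.9%), with a median log2 ratio of 0.49. Ratios were given on values per length, but a threshold on the antisense level alone raises them, so the difference between these sets is not a test. The ratio was large in each geometry: its median was 6.37 where the antisense gene lay inside the partner, 5.65 tail to tail, 5.14 head to head and 7.65 where the partner lay inside.

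**Figure D1:**
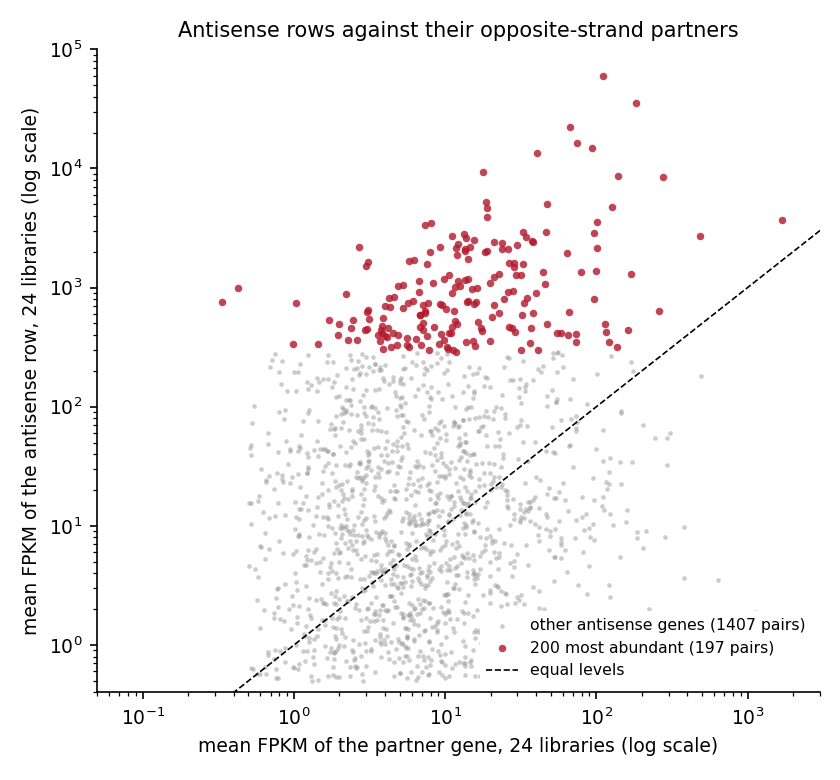
Mean FPKM of each antisense row (vertical axis, log scale) against that of its partner gene (horizontal axis, log scale) over the 24 libraries, with the 197 member pairs in red, the 1407 other pairs in grey and the line of equal levels dashed. All 197 member pairs lie above the line, and 800 of the 1407 others do.

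The highest rows face genes of tubulin, lysozyme, ubiquitin, sterol synthesis, secretion and nuclear import. AC011603.2 (chr12:49127782-49147869, plus strand), opposite the alpha-tubulin gene TUBA1B, averaged 59238 FPKM, against 111 for TUBA1B itself. AC020656.1 (chr12:69353493-69354225, minus strand), opposite lysozyme (LYZ), averaged 35096, and AC125611.3, opposite the alpha-tubulin gene TUBA1C, averaged 22405. Then came the rows opposite the ubiquitin gene UBB (AC093484.3, 16334 FPKM), the cholesterol synthesis enzyme HMGCS1 (AC114947.2, 14758) and the beta-tubulin TUBB (AL662797.1, 13372). The first 10 close with rows opposite the GTPase of early secretion RAB1B (AP001107.2, 9257), the disulfide isomerase P4HB (AC145207.3, 8608), the nuclear import receptor KPNB1 (AC015674.1, 8535) and the stress-induced mTORC1 inhibitor DDIT4 (DDIT4-AS1, 5263). Coordinates here and below are GENCODE release 29 on GRCh38.

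At the other end, ranks 196 to 200 were AC002550.1 (opposite KNOP1, 301 FPKM), AL589765.7 (MRPL9, 300.5), MDC1-AS1 (MDC1, 300.3), AC007383.3 (NDUFS1, 298) and AL080276.2 (MTRF1L, 287). The rows just outside were AP002490.1 at 285, AC048382.6 at 283, and CASK-AS1, AC130324.3 and AC010761.1 at 281 each.

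Together the 200 rows held between 35.8% and 46.6% of a library's summed FPKM, and their share was lower after palmitic acid in both genotypes. In WT it lay between 44.4% and 45.7% in the 4 libraries at 0 h and was 38.1% ± 1.09 (SD, n = 4) at 24 h and 37.0% ± 1.00 at 48 h. In KO it was 45.9% ± 0.48, 38.3% ± 0.70 and 36.6% ± 0.44. No library at 24 h or 48 h, the highest of which was 39.5%, reached the lowest at 0 h, 44.4%. Mitochondrially encoded genes moved the other way, from 3.53% ± 0.29 to 12.3% ± 0.91 and 11.1% ± 0.79 in WT and from 3.89% ± 0.52 to 11.5% ± 0.96 and 13.8% ± 0.80 in KO. With those genes taken out of the sum, the member share was still lower at 24 h and 48 h, by 3.17 and 4.92 percentage points in WT and 4.49 and 5.37 in KO. Without the 10 highest rows the difference was smaller, at -1.53 and -2.12 points in WT and -1.03 and -2.99 in KO.

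**Figure D2:**
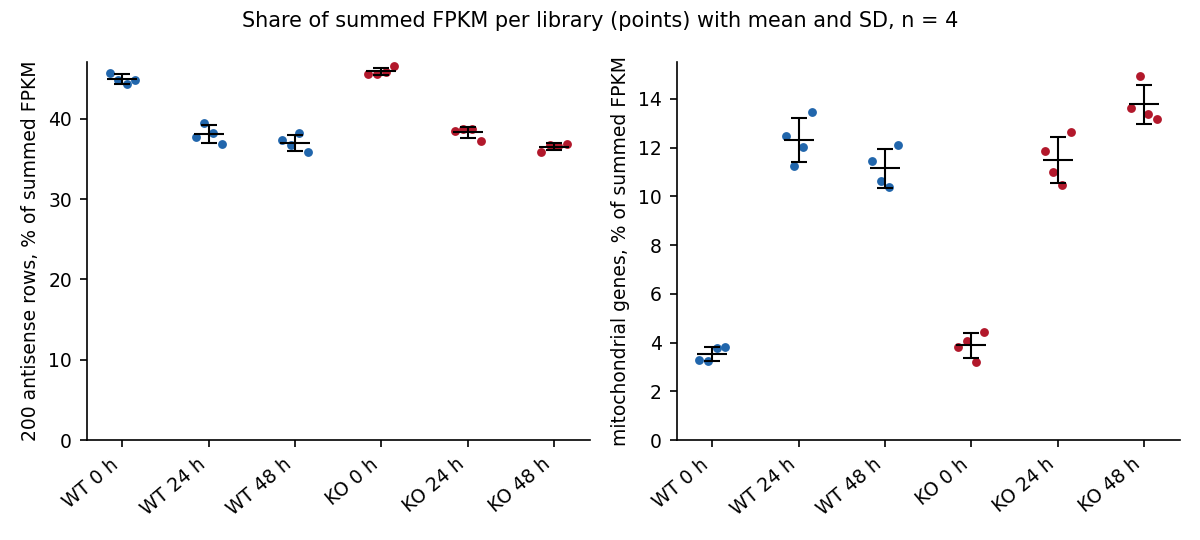
Summed FPKM of the 200 antisense rows (left) and of mitochondrially encoded genes (right) in percent of each library's summed FPKM, by genotype and time, with 1 point per library and the mean and SD of 4. The antisense rows lie at 44.4% or more in the 8 libraries at 0 h and at 39.5% or less in the 16 later ones.

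Of the members that were called after palmitic acid, most fell. A row was called when its adjusted p was under 0.05 in limma on log2(FPKM + 0.5), with Benjamini-Hochberg adjustment over the 17252 rows tested. At 24 h in WT 74 of 200 members fell and 5 rose, or 39.5%, against 4.06% of all rows tested (2.6% lower and 1.46% higher). At 48 h in WT 105 fell and 4 rose (54.5%, against 6.79%, of which 4.22% lower and 2.57% higher). In KO 84 fell and 9 rose at 24 h (46.5%, against 5.64%, 3.51% lower and 2.13% higher), and 128 fell and 5 rose at 48 h (66.5%, against 9.82%, 6.42% lower and 3.4% higher). The median log2 fold change of members was -0.41 and -0.55 in WT and -0.44 and -0.66 in KO at 24 h and 48 h, while the median of all rows tested was 0 to 2 decimals.

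Rows of the same level were also called often. The 196 rows outside the mitochondrial genome that are not members but have a mean at or above the lowest member, 146 of them protein-coding, were called in 31.6% and 49.5% of cases in WT and 41.8% and 59.7% in KO at 24 h and 48 h, also mostly lower (53, 86, 70 and 104 of them). Their median log2 fold changes were -0.32, -0.38, -0.34 and -0.53. This comparison set was chosen after values were seen, and with it nothing particular to antisense annotation is read from the members' counts. The 21 protein-coding genes at that level with no exon overlap on the other strand had 4, 7, 5 and 7 calls and medians between -0.18 and 0. Antisense rows that are not members, most of them far lower, had 5.09%, 7.46%, 6.02% and 11.2% called.

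**Figure D3:**
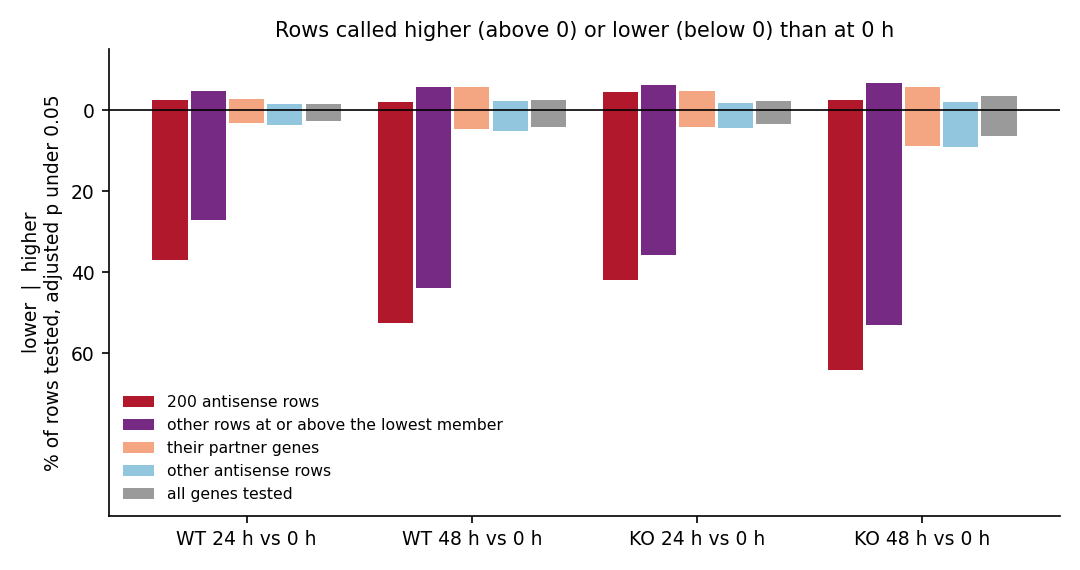
Percent of rows called higher (upward bars) or lower (downward bars) than at 0 h in each palmitic acid comparison, for the 200 members, the 196 other rows at or above the lowest member, the 191 tested partners, the other antisense rows and all 17252 rows tested. Between 37.0% and 64.0% of members and 27.0% to 53.1% of the other rows at that level were lower, against 2.6% to 6.42% of all rows.

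The split between directions depended on scaling. The FPKM were compared as deposited, and their sum per library was lower after 0 h. It averaged 1106530, 948696 and 886559 in WT and 1151070, 950007 and 857235 in KO at 0 h, 24 h and 48 h. With quantile normalization, which gives all libraries one distribution, 14 members rose and 41 fell at 24 h in WT, then 19 against 51 in WT after 48 h, and in KO 21 against 54 after 24 h and 26 against 65 after 48 h, with median log2 changes from -0.17 to -0.13. Over all rows tested, quantile normalization called 296 higher and 248 lower, 544 and 390, 463 and 357, and 747 and 677, in the same order. Those calls were 3.15%, 5.41%, 4.75% and 8.25% of all rows. Median-of-ratios rescaling, which moved the median of all rows by up to 0.11 on the log2 scale (KO, 48 h), left 67, 92, 76 and 107 members lower and 8, 8, 14 and 9 higher. Of all rows it called 362, 585, 496 and 848 lower and 312, 594, 470 and 814 higher (3.92%, 6.86%, 5.62% and 9.67% called).

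Across the 4 palmitic acid comparisons 56 members fell in all 4 (28%, against 1.43% of all rows tested and 21.9% of the 196 other rows at that level) and 2 rose in all 4 (1%, against 0.539% and 3.57%). At least 1 call was lower for 137 members (68.5%, against 8.2% and 58.2%) and higher for 12 (6%, against 5.58% and 8.67%). No member was called in both directions, and 51 had no call (25.5%, against 86.3% and 33.2%). The 24 h and 48 h comparisons of a genotype share their 0 h libraries, so these counts are not independent.

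AC092535.4 had the highest log2 fold change of the 200 in each of the 4 comparisons. It is a single exon of 397 bases at chr4:1167778-1168174 on the plus strand. It is 1 of the 3 members without a partner: it lies within the span of SPON2, a secreted matrix protein, but touches none of its exons. Its 4 WT libraries had 122, 57.9, 42.7 and 182 FPKM at 0 h, then 248, 351, 445 and 388 after 24 h, then 900, 495, 745 and 549 after 48 h. The KO libraries had 88.2, 62.4, 47.7 and 97.9 at 0 h, then between 293 and 517, then 411, 518, 542 and 593. All libraries at 24 h and 48 h lay above all at 0 h in both genotypes. The log2 fold changes were 2.02 ± 0.34 (SE) and 2.92 ± 0.34 in WT and 2.32 ± 0.34 and 2.84 ± 0.34 in KO (limma adjusted p = 7.09e-04, 3.61e-06, 9.40e-05 and 2.94e-06). SPON2, listed at 0 in 8 libraries including the 4 of KO at 0 h, was also higher at 48 h, with means of 9.51 ± 1.43 FPKM in WT and 13.1 ± 5.85 in KO (SD, n = 4).

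AL031600.3 (chr16:1445343-1446519, plus strand) lies wholly within exons of CLCN7, the chloride-proton exchanger of lysosomes. In WT it read 449, 708, 647 and 506 FPKM at 0 h, then 1458, 1215, 1155 and 1132 after 24 h, then 1566, 1714, 2338 and 1717 after 48 h. In KO it read 454, 616, 585 and 499, then 1278, 1457, 1429 and 1603, then 1280, 1604, 1438 and 1701. In both genotypes all later libraries lay above all those at 0 h, and the log2 fold changes were 1.12, 1.67, 1.43 and 1.48 (each ± 0.15, SE), with limma adjusted p of 4.75e-05 or less. CLCN7 itself was listed at 0 in 3 of 4 WT libraries at 0 h and at 0.703 to 32.3 FPKM in the later libraries of both genotypes, so its called rises in WT are set against those zeros. In KO, where CLCN7 averaged 11.7 FPKM at 0 h, it had no call.

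A pair of rows rose at 24 h in both genotypes and had lower means at 48 h than at 24 h. AP003392.3 overlaps the end of HYOU1, an ER chaperone of the HSP70 family induced by the unfolded protein response. It went from 1776 ± 205 to 3328 ± 858 and 2305 ± 530 FPKM in WT and from 1948 ± 220 to 4359 ± 258 and 2091 ± 356 in KO (SD, n = 4). The rise was called at 24 h in both genotypes (log2 0.87 ± 0.17 and 1.17 ± 0.17, limma adjusted p = 0.00402 and 1.29e-04) and not at 48 h (0.35 and 0.09). Without limma's intensity trend in the variance the WT call was lost (adjusted p = 0.0688). HYOU1 itself rose in all 4 comparisons, with log2 fold changes of 1.03, 1.01, 1.70 and 1.30, so it remained higher at 48 h where the antisense row had no call. Whether the 2 rows differ in their 48 h change was not tested.

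The other row is AC011611.3, opposite PHLDA1, a pleckstrin-homology-like protein that responds to growth factors and stress. The WT libraries had 385, 514, 320 and 436 FPKM at 0 h, then 626, 655, 824 and 882 after 24 h, then 316, 301, 314 and 373 after 48 h. The KO libraries had 271, 308, 343 and 320, then 1165, 945, 670 and 1134, then 357, 536, 433 and 593. All 24 h libraries exceeded those at 0 h, and the log2 changes were 0.86 ± 0.18 in WT and 1.63 ± 0.18 in KO (limma adjusted p = 0.0062 and 2.70e-06). The WT call was lost without the intensity trend (limma adjusted p = 0.0755). At 48 h only KO had a call (0.60 ± 0.18, limma adjusted p = 0.0335). The interaction, which tests whether the KO and WT responses differ, was not called for this row at either time.

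AL136131.3, opposite the angiogenic factor VEGFA, varied widely between libraries, from 637 to 1711 FPKM in WT and 258 to 1211 in KO at 0 h. It rose in KO at 24 h and 48 h (log2 1.67 ± 0.46 and 1.89 ± 0.46, limma adjusted p = 0.0337 and 0.00901), while in WT the values were 1.10 ± 0.46 and 1.29 ± 0.46 without a call. DDIT4-AS1 rose in KO at 48 h only, from 3856 ± 291 to 6427 ± 528 FPKM (SD, n = 4; log2 0.74 ± 0.16, adjusted p = 0.0028). In WT it had 5764 ± 505 at 0 h and 5873 ± 1150 at 48 h, and the KO and WT levels at 0 h were not called different (log2 -0.58, adjusted p = 0.279). Its KO call at 48 h was lost without the intensity trend (limma adjusted p = 0.0557). AP001107.9 overlaps the nucleoside transporter SLC29A2 over 10.9% of its exonic bases. It rose in WT at 48 h (log2 0.78 ± 0.15), a call lost without the intensity trend (limma adjusted p = 0.0524). TNFRSF10A-AS1, next to a death receptor for TRAIL, rose there by 0.46, a call lost when 5 of 8 libraries were left out in turn. The remaining members with a higher call face the corepressor IRF2BP2, the choline kinase CHKA, the immediate early gene IER2 and the ribosome-binding ER protein LRRC59.

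The 300 bases around the RefSeq start site of 4 partners are printed because their antisense rows are among those that changed most: CLCN7 and HYOU1 face rows that rose, PRC1 and SAPCD2 rows that fell. Each runs from 250 bases before the start to 50 after it, from RefSeq on GRCh38.p14, given 5′ to 3′ on the minus strand that all 4 genes use. The genes and the motifs were picked after values were seen. Capitals mark CCAAT (the box bound by NF-Y), CACGTG (the palindromic E-box) and TTTGAA (a cell cycle homology region), each sought on both strands. The windows are CLCN7 chr16:1474979-1475278, HYOU1 chr11:119057156-119057455, PRC1 chr15:90994486-90994785 and SAPCD2 chr9:137070508-137070807.
CLCN7: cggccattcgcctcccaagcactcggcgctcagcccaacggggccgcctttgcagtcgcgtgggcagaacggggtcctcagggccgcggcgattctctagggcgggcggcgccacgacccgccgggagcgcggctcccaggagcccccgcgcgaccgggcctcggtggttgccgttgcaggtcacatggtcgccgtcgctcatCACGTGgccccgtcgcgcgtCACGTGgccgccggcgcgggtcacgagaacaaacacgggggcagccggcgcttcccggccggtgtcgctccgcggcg
HYOU1: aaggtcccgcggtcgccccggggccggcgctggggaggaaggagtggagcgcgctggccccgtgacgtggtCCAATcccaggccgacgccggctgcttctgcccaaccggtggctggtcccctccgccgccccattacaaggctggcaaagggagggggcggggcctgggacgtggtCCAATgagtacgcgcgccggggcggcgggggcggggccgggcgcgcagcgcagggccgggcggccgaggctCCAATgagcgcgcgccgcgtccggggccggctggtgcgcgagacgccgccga
PRC1: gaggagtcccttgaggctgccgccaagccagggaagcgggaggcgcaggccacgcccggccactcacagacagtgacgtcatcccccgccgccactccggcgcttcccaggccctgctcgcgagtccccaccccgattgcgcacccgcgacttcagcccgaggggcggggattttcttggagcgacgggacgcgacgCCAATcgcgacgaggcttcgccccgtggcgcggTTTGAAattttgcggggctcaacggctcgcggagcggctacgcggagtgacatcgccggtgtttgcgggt
SAPCD2: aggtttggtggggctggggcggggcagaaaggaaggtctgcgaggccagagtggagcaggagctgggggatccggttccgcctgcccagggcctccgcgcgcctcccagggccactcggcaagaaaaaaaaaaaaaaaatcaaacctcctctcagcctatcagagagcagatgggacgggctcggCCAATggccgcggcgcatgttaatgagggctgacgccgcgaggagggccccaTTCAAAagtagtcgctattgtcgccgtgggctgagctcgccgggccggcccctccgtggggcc

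The CLCN7 window holds CACGTG at 47 and 27 bases before the start. Of 35116 RefSeq windows of this length 0.663% hold it at least 2 times and 7.26% at least once. Of the 227 windows of partners 1.32% and 9.69% do. The HYOU1 window holds CCAAT 3 times, while 34.6% of all windows and 36.6% of partner windows hold it at least once. PRC1 and SAPCD2 each hold CCAAT, at 53 and 65 bases before the start, followed by TTTGAA at 20 and 13 bases before it, the latter printed as its reverse complement TTCAAA. Both motifs occur together in 5.90% of all windows and 3.965% of partner windows. These are descriptions of sequence near the partners' starts, not of binding, and a window was available for 159 of 193 partners.

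Among members that fell were rows opposite tubulin and mitotic genes. AC011603.2 (TUBA1B) read 95423, 91253, 84612 and 82273 FPKM in WT at 0 h, then 42021, 54574, 55387 and 47794 after 24 h, then 37381, 39113, 41259 and 29907 after 48 h. In KO it read 96402, 91387, 97895 and 104823, then 50370, 52280, 51412 and 41226, then 32303, 34460, 35704 and 32443. No later library reached a 0 h library, and the log2 fold changes were -0.83, -1.27, -1.00 and -1.53 (each ± 0.09, SE; limma adjusted p of 5.84e-06 or less). AL662797.1 (TUBB) fell by 1.02 and 1.26 in WT and 1.09 and 1.46 in KO on the log2 scale. TUBA1B itself fell in 3 of the comparisons, by 0.78 (WT, 48 h), 0.52 (KO, 24 h) and 0.66 (KO, 48 h), and TUBB had no call.

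PRC1-AS1 lies within PRC1, which bundles microtubules of the central spindle, and shares 22.6% of its exonic bases with it. In WT it had 915, 1248, 1113 and 790 FPKM at 0 h, then 365, 547, 496 and 481 after 24 h, then 322, 224, 334 and 187 after 48 h. In KO it had 954, 943, 1048 and 1095, then 619, 641, 617 and 405, then 162, 188, 218 and 150. The log2 fold changes at 24 h and 48 h were -1.10 and -1.95 in WT and -0.84 and -2.50 in KO (each ± 0.19, SE), called in all 4, with no overlap between 0 h and later libraries. AL807752.3, inside SAPCD2, a regulator of spindle orientation, fell by 1.33 and 1.83 in WT and 1.28 and 2.38 in KO (each ± 0.15). Neither PRC1, with -1.10 and -1.29 at 48 h in WT and KO, nor SAPCD2, at 3.61 FPKM in WT at 0 h, had a call.

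TMPO-AS1 faces the lamina-associated protein thymopoietin. It fell in all 4 comparisons, by 1.03 and 1.44 in WT and 0.79 and 1.71 in KO on the log2 scale. TMPO fell in 3 of them, from 68.6 ± 11.5 to 31.2 ± 9.21 FPKM in WT at 48 h and from 79.7 ± 21.8 to 32.1 ± 14.8 and 19.6 ± 5.69 in KO (SD, n = 4). The 2 rows opposite CCDC86 moved alike: AP000777.3 fell by 0.96, 1.59, 1.35 and 2.05 and AP000777.2 by 1.01, 1.44, 1.38 and 1.70, and CCDC86 fell in KO (log2 -1.72 and -2.42). AC008750.4 faces ETFB, a subunit of the electron transfer flavoprotein that takes electrons from fatty acid oxidation. It fell by 2.04 in WT at 24 h and 1.94 in KO at 48 h (limma adjusted p = 0.0102 and 0.00671), and in WT at 48 h from 916 ± 237 to 252 ± 139 FPKM (SD, n = 4; adjusted p = 0.00786). Its WT libraries at 24 h spread from 60.3 to 606 FPKM. The WT call at 24 h was lost with only the groups compared in the fit (limma adjusted p = 0.102). That at 48 h was lost under quantile normalization (limma adjusted p = 0.0519). In KO at 24 h the change was -1.16 ± 0.46 without a call.

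**Figure D4:**
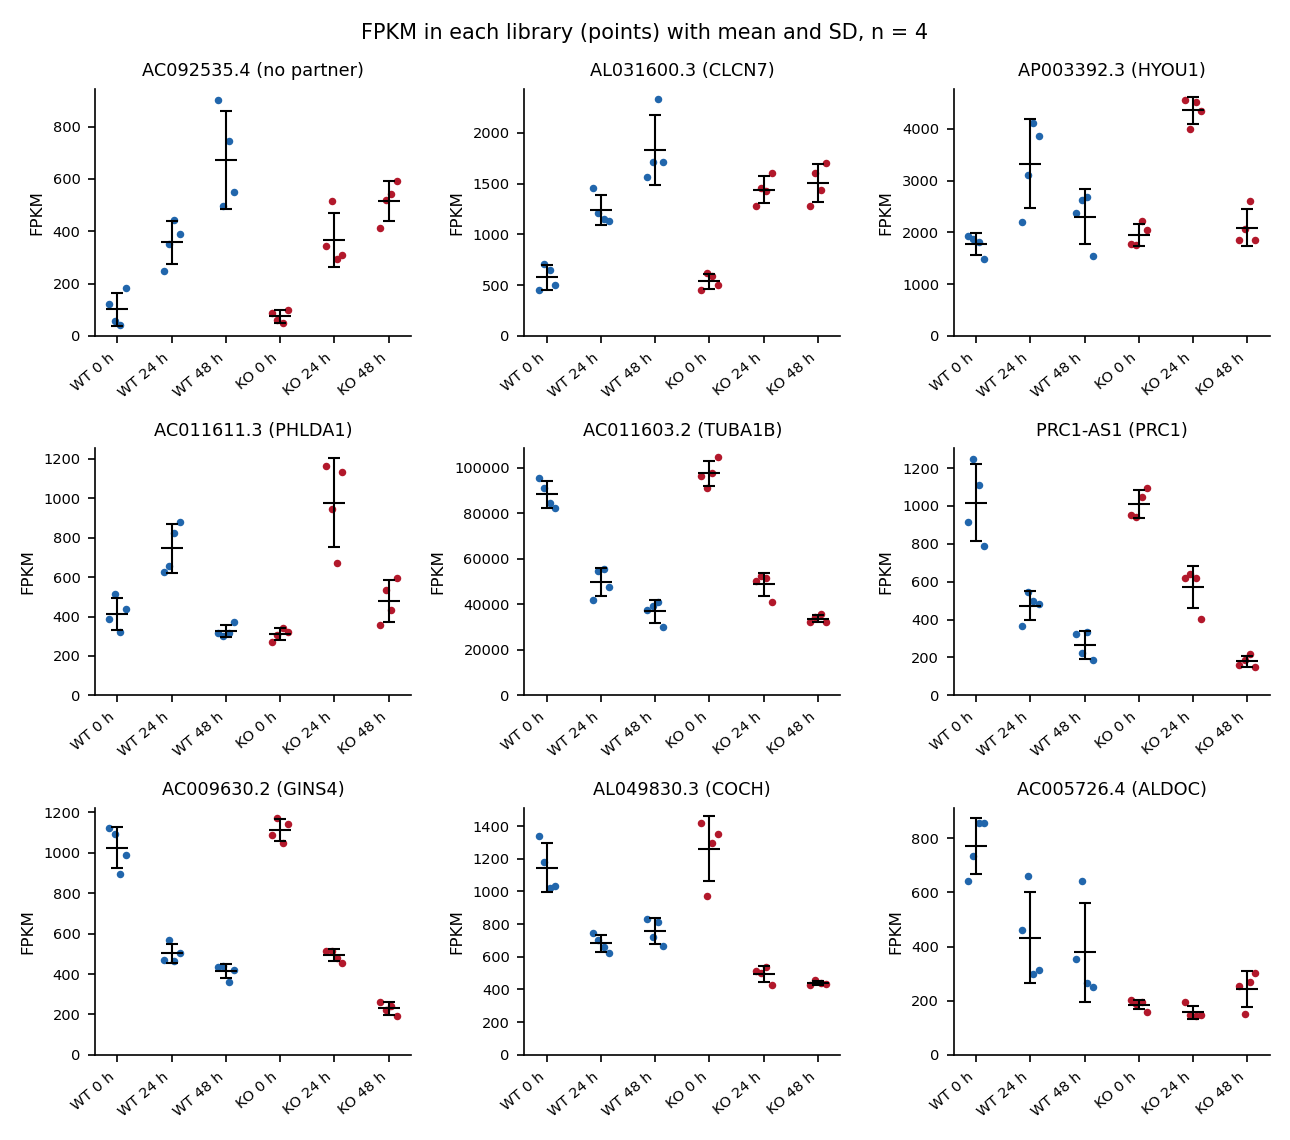
FPKM in each library (1 point each, WT blue, KO red) with the mean and SD of 4, for 9 antisense rows with the partner in brackets. The first 4 rows rise after 0 h, with HYOU1's and PHLDA1's peaking at 24 h, and the next 4 fall, AC009630.2 and AL049830.3 further in KO at 48 h. AC005726.4 starts lower in KO.

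Members were also grouped by their partner's role. The lists were matched by partner symbol, and 72 of 200 members were in at least 1 of the 24 lists. With so few members a list, counts are descriptive and are read beside the 37.0%, 52.5%, 42.0% and 64.0% of all members that fell in WT at 24 h and 48 h and KO at 24 h and 48 h.

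The cytoskeleton list had 5 members, of which 3, 4, 4 and 4 fell in the 4 comparisons, with list medians of -0.72, -0.97, -0.97 and -1.46. It holds the 3 tubulin rows, AC009133.4 opposite the kinesin KIF22 and AC018557.1 opposite a dynein light intermediate chain, which had no call. Both members of the replication and cell cycle list fell in all 4: AC009630.2, opposite the GINS4 subunit of the replicative helicase, and AC025162.1, opposite the kinase CDK2, which fell by 1.00, 1.26, 1.24 and 1.83. Both rows opposite subunits of the cytosolic chaperonin, AC107081.2 (CCT4) and AC012640.4 (CCT5), also fell in all 4, the latter by 0.90, 1.32, 0.93 and 1.38.

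Of 3 rows facing mitochondrial ribosomal proteins, 2 fell at 24 h in WT and all 3 in the other comparisons: AL589765.7 (MRPL9) and AC011511.3 (MRPL4) in all 4, and DNAJC9-AS1, whose largest overlap is with MRPS16, in 3. AC091180.3, opposite prohibitin (PHB), a scaffold of the inner membrane, went from 3394 ± 395 to 1932 ± 162 and 1776 ± 421 FPKM in WT and from 4114 ± 160 to 1857 ± 198 and 1683 ± 228 in KO (SD, n = 4), called lower throughout. AC018761.2, opposite the peroxiredoxin PRDX2 and the only member of the redox list, fell by 0.95, 1.31, 1.10 and 1.53. AC007383.3, opposite the complex I subunit NDUFS1, fell in WT at 48 h only (log2 -0.63).

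Rows opposite lipid genes were mixed. Among rows facing sterol synthesis enzymes, AC114947.2 (HMGCS1) stayed between 11396 and 19992 FPKM in all 24 libraries, with no call, and RUSC1-AS1, opposite the farnesyl diphosphate synthase FDPS, had no call. Of 4 rows facing genes of fatty acid oxidation and lipid droplets, 2 and 3 fell in WT and 0 and 3 in KO. They were AC008750.4 (ETFB), AL606760.2, opposite the carnitine palmitoyltransferase CPT2 (-0.53, -0.72 and, in KO at 48 h, -0.67), and AC027319.1, opposite the droplet coat protein PLIN3 (-0.79 and -0.53 at 48 h). The row opposite the acyltransferase GPAT4 had no call.

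Of 6 rows facing ER genes, 1 rose and 2 fell at 24 h in WT, 3 fell at 48 h in WT, 1 rose and 3 fell at 24 h in KO, and 3 fell at 48 h in KO. The rise was HYOU1's row. AC145207.3 (P4HB) fell in all 4 (log2 -0.51, -0.49, -0.60 and -0.98), as did AL133453.1, opposite the oxidase ERO1A that recharges P4HB, and AC092069.1, opposite the lectin chaperone calreticulin (CALR), fell in all but WT at 24 h. Rows opposite OS9 and the ER stress kinase EIF2AK3, which the symbol match also placed among translation factors, had no call.

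Of 7 proteasome and ubiquitin rows 4, 4, 4 and 5 fell, among them AC093484.3 (UBB; log2 -0.35, -0.62, -0.42 and -0.61), while RNF185-AS1 had no call. Of 7 signalling rows 3, 5, 3 and 6 fell, led by AC024909.2, opposite the ERK phosphatase DUSP6, and the row opposite AKT1 had no call. Of 6 vesicle transport rows 2, 3, 3 and 4 fell, with the RAB1B and RAB8A rows lower in all 4 and CHMP1B-AS1, opposite an ESCRT component, without a call. Transcription factor rows were mixed: of 5, AL160408.2 (IRF2BP2) rose at 24 h in both genotypes (log2 0.37 and 0.66), and 2 and 3 fell at 48 h. Neither member of the lysosome and autophagy list, opposite ATG101 and MAN2A2, was called, and the row opposite CLCN7 was listed under membrane carriers. The 7 rows under membrane carriers hold the risers AL031600.3 and AP001107.9, and AC016888.1, whose partner SLC9A3R1 is a scaffold protein rather than a carrier.

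Fewer partners than members were called. Of 191 partners tested, 11 and 20 were called in WT and 17 and 28 in KO at 24 h and 48 h. These are 5.76%, 10.5%, 8.90% and 14.7% of them, against 4.06%, 6.79%, 5.64% and 9.82% of all rows tested. The partners' means had a median of 13.5 FPKM, against 743 for the members, so the 2 counts are not matched for level. In the 195 pairs with both rows tested, both were called in 6, 11, 10 and 17, in the same direction in 6, 7, 7 and 13 and in opposite directions in 0, 4, 3 and 4. In those pairs the antisense row was called in 77, 106, 92 and 129 and the partner in 11, 21, 18 and 29. The partner alone was called in 5, 10, 8 and 12. Whether joint calls were more frequent than separate calling would give was not tested. The median log2 ratio of antisense row to partner was 6.38 ± 0.10, 6.22 ± 0.20 and 6.08 ± 0.17 in WT and 6.49 ± 0.05, 6.12 ± 0.11 and 5.89 ± 0.16 in KO at 0 h, 24 h and 48 h (SD, n = 4).

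Several pairs fell together. AC093503.2 and its partner CALM3, a calmodulin gene, both fell at 24 h in WT and KO and at 48 h in WT. At 24 h the row fell by 1.06 in WT and 1.01 in KO, and CALM3 fell by 0.97 and 1.04. Calreticulin and its row fell at 48 h in both genotypes (CALR log2 -0.53 and -0.66, row -0.80 and -1.18), and KNOP1 and AC002550.1 did so in 3 comparisons. In KO at 48 h the pairs of PA2G4, EAF1, NFATC3, EIF4E2, THUMPD3 and the integrin-linked kinase ILK were also both lower. At 0 h 1 KO library had 1860 FPKM of ILK, and the other KO libraries there had 60.5 to 189.

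Other pairs parted. TUBA1C rose in KO (log2 1.07 at 24 h and 0.92 at 48 h) and AC125611.3 fell (-0.34 and -0.65). LYZ rose at 48 h in KO (0.76) and AC020656.1 fell (-0.50). SLC29A2 fell in WT at 48 h from 239 ± 24.2 to 140 ± 15.9 FPKM, and AP001107.9 rose from 1040 ± 100 to 1789 ± 246. AC138150.1 fell in WT at 48 h by 1.02 opposite HEXIM1, an inhibitor of the elongation kinase P-TEFb, which rose by 1.02. HMGCS1 rose in WT at 48 h and in KO at both times (log2 1.10, 1.08 and 1.72) with no call for AC114947.2.

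**Figure D5:**
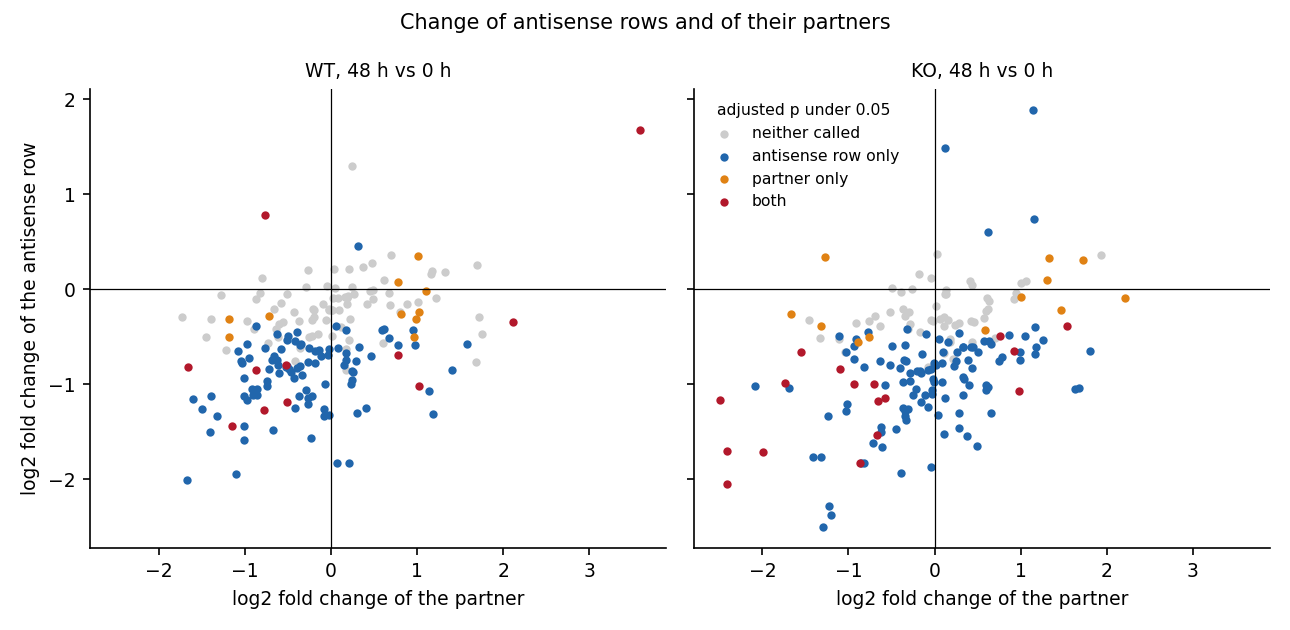
Log2 fold change at 48 h against 0 h of each antisense row (vertical axis) and of its partner (horizontal axis) in WT (left) and KO (right), coloured by which of the 2 was called. Most rows lie below 0, called pairs (red) lie both left and right of 0 for the partner, and 4 pairs in each panel were called in opposite directions.

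Few members were called between the genotypes. At 0 h 1 of 200 was called, lower in KO (0.5%, against 0.0985% of all rows, 0.0754% lower and 0.0232% higher). At 24 h limma called 0, against 0.0116% of all rows (0.0058% lower and 0.0058% higher), and also 0 under each alternative tried. At 48 h 3 were called, all lower in KO (1.5%, against 0.0638%, 0.0406% lower and 0.0232% higher). No member had a called interaction at 24 h (0% of all rows), and 2 had one at 48 h (1.0%, against 0.0522%, 0.0348% lower and 0.0174% higher). An unadjusted limma p under 0.05 was met by 16, 23 and 46 of the 200 members between genotypes at 0 h, 24 h and 48 h. Of the 17252 rows tested, 1194, 892 and 1131 met it. For the interactions 7 and 38 members met it at 24 h and 48 h, against 950 and 1139 of all rows. The other rows at the members' level were not counted for the genotype comparisons and interactions. Nothing particular to antisense annotation is therefore read from these counts.

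The call at 0 h was AC005726.4, opposite ALDOC, the brain-type aldolase of glycolysis. WT libraries had 643, 734, 855 and 855 FPKM and KO libraries 201, 187, 194 and 160, so the groups lay far apart (log2 -2.05 ± 0.27, limma adjusted p = 7.47e-04). In WT the row then fell, to 356, 644, 264 and 251 at 48 h, and in KO it stood at 255, 150, 270 and 303. ALDOC itself was listed at 0 in all 4 KO libraries at 0 h and averaged 5.31 FPKM in WT, without a call.

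Both interaction calls were rows that fell further in KO at 48 h. AC009630.2 (GINS4) had 1120, 1094, 896 and 989 FPKM in WT at 0 h and 434, 440, 362 and 422 at 48 h, against 1085, 1172, 1050 and 1144 and then 262, 222, 242 and 191 in KO. At 24 h the genotypes overlapped, at 465 to 568 in WT and 454 to 516 in KO. The interaction was -0.98 ± 0.15 (limma adjusted p = 0.00413) and the KO to WT difference at 48 h -0.86 ± 0.11 (2.04e-04). AL049830.3 lies opposite COCH, which encodes the matrix protein cochlin. It went from 1144 ± 150 to 758 ± 77.0 in WT and from 1261 ± 198 to 439 ± 13.6 in KO (SD, n = 4), with an interaction of -0.92 ± 0.17 (adjusted p = 0.0297) and a difference at 48 h of -0.78 ± 0.12 (0.00271). The COCH interaction was lost when any of 11 of the 16 libraries was left out, the GINS4 one in none of 16. Both interactions were lost without the intensity trend (adjusted p = 0.598 for AC009630.2 and 0.633 for AL049830.3). The 48 h differences between genotypes of these rows were lost without it too (limma adjusted p = 0.288 and 0.464). They were also lost with only the groups compared in the fit (limma adjusted p = 0.147 and 0.0716). AC023024.1, opposite the proprotein convertase PCSK6, was lower in KO at 48 h by 0.77 ± 0.15 (adjusted p = 0.0471), a call lost when 7 of 8 libraries were left out in turn.

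Members that share a partner did not always share a course. Opposite CEBPA, a transcription factor of hepatocyte identity, AC008738.3 fell in KO at 48 h (log2 -0.80), while AC008738.5, just downstream of it, had -0.25 there and no call in any comparison. Opposite MAZ, AC009133.1 fell in all 4 comparisons and AC009133.2 in none. Opposite USP22, CCDC144NL-AS1, only 3.85% of whose exonic bases overlap it, fell in all 4 and AC087393.2, wholly inside it, in none. The differences within these pairs were not tested.

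The 2 other members without a partner were AC005288.1, which overlaps the spans of FBXL20 and MED1 but no exon of either and fell in WT at both times and in KO at 48 h (log2 -0.53, -0.82 and -0.96), and AL049840.2, within KLC1, which fell in KO at 48 h (-0.72). KLC1, a kinesin light chain, fell there too (-1.28 ± 0.32, limma adjusted p = 0.00924). THRIL, a long RNA studied for its part in TNF induction and placed here opposite BRI3BP, fell in all 4 comparisons (log2 -0.98, -0.74, -1.38 and -1.47), as did ABALON, opposite the apoptosis regulator BCL2L1.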

How the data were processed

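RNA of 24 Huh7 libraries (6 groups of 4) was sequenced from directional mRNA libraries. The authors deposited 1 table of FPKM per gene; STAR, Cufflinks, Cuffdiff and GRCh38 are named without versions in the submitters' processing notes, and the strand setting and annotation release are not given in the sources used here. The table holds no depth: fragments per library were estimated from the most frequent low value per length, taken as 1 fragment.

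Rows were matched by gene ID without version to GENCODE release 29 (57375 of 58024). A partner is the protein-coding gene on the opposite strand with the largest exonic overlap. No scaling between libraries was applied. log2(FPKM + 0.5) was fitted with limma 3.58.1 (R 4.3.3) for rows with a mean of at least 0.5 FPKM (17252; 40727 fell below), with 6 group means and an intensity trend, over 7 pairwise comparisons and 2 interactions. P-values were Benjamini-Hochberg adjusted over all rows tested and called under 0.05. The fit was also run on simulated data with a single depth for all libraries, unlike these data, and a single spread setting. That run does not measure the error rates of the fit here. A fold change on this scale understates the change of low rows.

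A rule set which members could be named, 72 in all, with their partners. They were the 10 highest members, those just inside rank 200, called interactions, the 3 highest of each partner list and members without a partner. It also took up to 4 highest and 4 lowest called fold changes per comparison without overlap between libraries. Not all of the 72 are printed, and not every partner list is described. Further members are named because they were counted in a list, rose, or were called with their partner, after their values were seen. Members and lists were chosen with earlier results of these data known. A planned permutation test of the member share was not reported. One member pair is not reported here. Alternatives changed the pseudocount, filter, scaling, trend, weights, replicate block, samples in the fit, or left out each library. Tables and figures used Python 3.11.15, numpy 2.4.6, pandas 2.3.3 and matplotlib 3.10.9.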

Additional observations from a re-analysis of the deposited data

Results flagged for a closer look

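In 10 of 192 groups of 4 libraries examined, 1 library stood far from the other 3; chance gives about 1 in 20. In WT at 48 h replicate 3 was the lowest for AC093484.3 opposite UBB (10016 FPKM, others 14146 to 14334), AP000777.3 opposite CCDC86 (703, others 1137 to 1205) and AC023024.1 opposite PCSK6 (338, others 530 to 544). In KO at 24 h replicate 3 was the lowest for the summed share of the members (37.3%, others 38.5% to 38.7%), PRC1-AS1 (405 FPKM, others 617 to 641) and AP001107.9 opposite SLC29A2 (783, others 1166 to 1218). AP001107.9 also had 1 high library in WT at 24 h (1480, others 1014 to 1049). The other 3 were AC020656.1 opposite LYZ in KO at 48 h (34781, others 37174 to 37371), AL662797.1 opposite TUBB in KO at 0 h (25322, others 20027 to 20844) and AC005726.4 opposite ALDOC in KO at 24 h (194, others 145 to 146).

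The 48 h response was called different between the genotypes, by limma's interaction term, for AC009630.2 opposite GINS4 (-0.98 on the log2 scale) and AL049830.3 opposite COCH (-0.92), both falling further in KO. Neither call held without the intensity trend. That of AL049830.3 was also lost with only the groups compared in the fit, and when any of 11 of 16 libraries was left out.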

How the results depend on the processing

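Without the intensity trend 25 members were called in WT at 24 h, 57 in WT at 48 h and 44 in KO at 24 h. Calls over all rows were also fewer, at 1.94%, 4.35% and 3.70%, against 4.06%, 6.79% and 5.64% in the main fit. At 48 h it called 0 members between genotypes and 0 for the interaction, against 0.0232% of all rows in each. Quantile normalization called 70 in WT at 48 h and 10 between genotypes at 48 h (5.41% and 0.151% of all rows). With only the groups compared in the fit the counts were 71 in WT at 48 h, 0 between genotypes at 48 h and 1 for the 48 h interaction. Over all rows the shares were 3.31%, 0.0413% and 0.0524%. Between genotypes at 48 h median-of-ratios rescaling called 6 and array weights 5 (0.122% and 0.116% of all rows). The causes were not tested.

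Leaving out each library in turn gave 58 to 80, 87 to 108, 74 to 97 and 113 to 128 calls in WT at 24 h and 48 h and KO at 24 h and 48 h, 1 to 2, 0 and 2 to 9 between genotypes at 0 h, 24 h and 48 h (9 without WT 48 h replicate 3), and 0 and 1 to 3 for the interactions. In the same order, the palmitic acid fits called 2.56% to 3.84%, 4.91% to 6.16%, 4.05% to 5.19% and 7.76% to 9.14% of all rows. Between genotypes the shares of all rows were 0.0870% to 0.209%, 0% to 0.0116% and 0.0348% to 0.203%. For the interactions they were 0% to 0.0058% and 0.0348% to 0.0754%. The member share then differed from 0 h by -7.33 to -6.46, -8.30 to -7.51, -7.75 to -7.26 and -9.48 to -9.12 percentage points, and between genotypes by 0.721 to 1.22, -0.194 to 0.672 and -0.888 to -0.103.

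Without mitochondrial genes in the sum the share differences were -3.17, -4.92, -4.49 and -5.37, and 0.716 between genotypes at 48 h. Relative to rows not annotated as antisense they were -32.6, -36.1, -34.8 and -41.2, with 2.62 at 0 h and -2.48 at 48 h between genotypes. Without the 10 highest members they were -1.53, -2.12, -1.03 and -2.99, and the genotype difference at 0 h turned to -0.210.

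Of 38 values of named members 10 lost their call without the intensity trend, 6 with only the groups compared, 1 each under a pseudocount of 0.1, no filter and quantile normalization, and none reversed. Whether the replicate numbers pair the libraries is not stated in the labels. With group means removed, same-numbered libraries of different groups had correlations of -0.125 to 0.144 (4 of 60 above 0.1). Of 24 libraries 7 correlated best with their own number. These values cannot settle whether the libraries were paired. A replicate block gave 88 and 120 calls in WT and 103 and 144 in KO at 24 h and 48 h. Of all rows it called 4.29%, 7.26%, 5.89% and 10.2%. Between genotypes it gave 2 calls at 0 h and 9 at 48 h (0.139% and 0.157% of all rows). At this depth 1 fragment on a row of 705 bases, the members' median length, was worth 1.84 to 3.55 FPKM.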
